A study of Mus musculus with 4 samples.

Results

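Endothelial cells, which line blood vessels, were compared between irradiated and shielded hindlimb muscle of mice 56 days after fractionated X-rays. A cell barcode, which tags the RNA of 1 droplet, was taken as endothelial when it held at least 3 summed unique molecular identifiers (UMIs, counts of captured transcripts) of Pecam1, Cdh5, Egfl7 and Cldn5 and none of Ptprc, Pdgfra or Pax7, which mark leukocytes, fibro-adipogenic progenitors and satellite cells. The barcodes were thus selected on their measured UMIs of these 7 genes, and the levels of those genes are no finding. Barcodes under 200 genes or 500 UMIs, or with over 20% of UMIs from mitochondrial genes, were left out. The rule kept 1237 of the 7086 barcodes of the series, 761 from the shielded and 476 from the irradiated library at 56 days. These were 44.8% (42.4 to 47.2) and 49.1% (45.9 to 52.3) of the barcodes that passed the quality limits in each library, with exact binomial 95% intervals.

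The mice were male and of the C57Bl/6J strain. One hindlimb received 3 fractions of 8.2 Gy at the age of 5 weeks while lead covered the rest of the body, and the opposite limb of the irradiated animals served as the control. A control limb therefore came from an irradiated animal. Each library pooled 3 limbs and was made from at least 10000 live mononucleated cells sorted by nuclear and viability dyes. A pair of libraries from limbs taken 24 hours after the last fraction is given beside the 56-day pair, with 469 shielded and 1541 irradiated endothelial barcodes under the same rule.

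Every group was 1 library, so no test between groups was possible and no p-value is given. A level is given as CPM, the UMIs of a gene per 1000000 UMIs of the endothelial barcodes of that library. A ratio is the irradiated level over the shielded level, with an exact 95% interval in brackets that covers counting error only. Differences between animals, pools and preparations lie outside these intervals. Which genes differed had been seen before in these data, so the values describe this pair of libraries.

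DNA breaks stabilise the transcription factor p53, which induces Cdkn1a, the gene of the cyclin-dependent kinase inhibitor p21, together with genes of apoptosis, of DNA repair and of its own degradation. Endothelium is a radiosensitive part of many tissues, and persistent p21 is one of the marks by which senescent cells are recognised. In skeletal muscle most endothelial cells belong to capillaries, which take up fatty acids through proteins such as CD36 and FABP4.

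Of 24 endothelial marker genes outside the rule, 24 were higher in the chosen barcodes than in the other barcodes of the same library, in both libraries. Their summed level was 39485 CPM in shielded and 31887 CPM in irradiated endothelium, against 1167 and 2006 CPM in the other barcodes. Within the sum Fabp4 had 19152 and 13946 CPM and Cd36 had 3323 and 1758. The median log2 ratio of the 24 genes was 0.02, with 13 above and 11 below a ratio of 1. The chosen barcodes held 2664330 and 1996888 UMIs, with medians of 3060 and 3614 UMIs a barcode. No barcode was shared by the endothelial sets of these 2 libraries. Markers of other cells were present and not equal. Erythroid markers had the largest sum, 3297 CPM in shielded and 4564 CPM in irradiated endothelium, against 72675 and 47926 CPM in the other barcodes. Myofibre markers summed to 250 and 234 CPM. In the shielded library Rgs5, a pericyte gene, was at 343 CPM in the chosen and 312 CPM in the other barcodes. Pericyte and smooth muscle markers summed to 642 CPM in the shielded and 1055 CPM in the irradiated library, fibro-adipogenic and tendon markers to 495 and 97.2, leukocyte markers to 267 and 32.0, and Schwann cell markers to 4.50 and 91.6. Near the threshold, 27 shielded and 15 irradiated barcodes held exactly 3 marker UMIs. Their Cdkn1a levels were 17.6 (0.447 to 98.3) and 607 (303 to 1086) CPM. Another 29 and 13 barcodes fell outside with 2, at 152 (61.1 to 313) and 360.4 (132 to 785).

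Counts of at least 20 over both libraries were reached by 10341 genes. A ratio of 1.5 or more in irradiated endothelium was found for 1329 of them (12.9%), called higher below, and a ratio as far under 1 for 1350 (13.1%), called lower. The log2 ratios had a median of 0.02. The counting interval lay wholly past 1.5-fold for 244 genes (2.36%) above and 210 genes (2.03%) below. The 24-hour pair gave 17.7% higher and 5.82% lower genes of 11328, with intervals wholly past 1.5-fold for 3.26% and 0.821%. The 2 shielded libraries, compared with each other across the times, gave 13.8% higher and 10% lower genes by the first rule and 2.03% and 1.32% by the second. So 2 libraries of shielded limbs, taken at different times, differed in shares of that size.

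**Figure D1:**
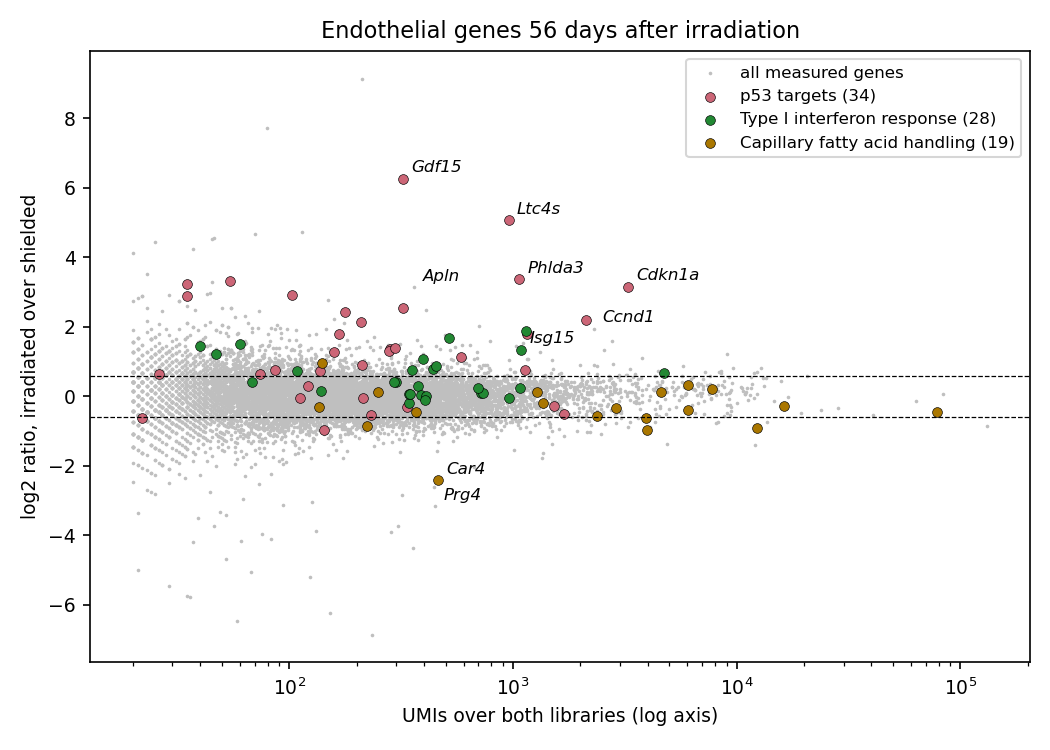
Log2 ratio of irradiated over shielded endothelium at 56 days (vertical axis) against UMIs over both libraries (horizontal log axis) for 10341 genes, with dashed lines at 1.5-fold and 3 gene lists in colour. Most p53 targets lie above the upper line, with Gdf15 and Ltc4s furthest up, and Car4 lies furthest down among the capillary genes.

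Most p53 targets were higher 56 days after irradiation. Of 40 listed genes 34 were measured, 25 of them higher (12.9% of all genes) and 2 lower (13.1%). The median of their log2 ratios was 1.29 (0.65 to 2.20) beside 0.02 for all genes, where the bracket is an order-statistic interval that describes the spread of the listed genes. At 24 hours 28 of 36 were higher (17.7% of all genes) and none lower (5.82%), with a median of 1.81 beside 0.08 for all genes. The list was chosen with these results known, so its direction is a description. Shielded limbs also differed between the times. By the same rule 13 of 31 measured targets were lower at 56 days than at 24 hours (10% of all genes) and none was higher (13.8%).

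Cdkn1a (ENSMUSG00000023067, mm10 chromosome 17, 29090976 to 29100727) had 422 UMIs in the shielded and 2826 in the irradiated library, levels of 158 and 1415 CPM. The ratio was 8.93 (8.06 to 9.92). The 24-hour libraries had 308 and 2322 CPM, a ratio of 7.54. So the level in irradiated endothelium was lower at 56 days than at 24 hours and the shielded level was lower as well, leaving ratios of similar size. Trp53 itself, the p53 gene, had 143 and 135 UMIs and a ratio of 1.26 (0.988 to 1.60).

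The ratios of the feedback genes Mdm2 and Ccng1, and of the target Eda2r, were smaller than that of Cdkn1a. Mdm2, the ubiquitin ligase gene that degrades p53, had 36.0 and 93.1 CPM, a ratio of 2.59 (2.01 to 3.34) against 4.45 at 24 hours. Ccng1, the cyclin G1 gene, had 36.8 and 91.1 CPM, a ratio of 2.48 (1.93 to 3.20) against 6.07. Eda2r, a death-domain receptor gene of the tumour necrosis factor receptor family, had 21.0 and 51.1 CPM, a ratio of 2.43 (1.74 to 3.43) against 4.34. For Phlda3, whose product restrains the kinase Akt, the order of the times was the other way round. It had 45.4 and 472 CPM, a ratio of 10.4 (8.59 to 12.7) against 4.17 at 24 hours. The 24-hour levels were 131 CPM in shielded and 547 CPM in irradiated endothelium, so both were lower at 56 days.

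Promoters are shown for 3 targets whose window from 250 bases before to 50 bases after the start site (RefSeq, GRCm38.p6) holds a p53 half-site, the p53 decamer motif searched on both strands. Capitals mark the match, and each stretch of 80 bases reads along the gene.
Mdm2 (chr10:117710901-117710980, minus strand): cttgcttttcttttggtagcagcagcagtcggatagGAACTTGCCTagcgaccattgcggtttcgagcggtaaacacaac
Ccng1 (chr11:40755428-40755507, minus strand): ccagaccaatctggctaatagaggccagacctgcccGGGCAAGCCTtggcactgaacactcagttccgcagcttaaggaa
Ckap2 (chr8:22185979-22186058, minus strand): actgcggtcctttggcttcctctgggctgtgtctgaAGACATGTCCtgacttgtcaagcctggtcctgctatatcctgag
The motif stood in 10 of the 30 listed targets found in the RefSeq table (33.3%) and in 9.55% of all 27025 genes there. Measured targets with it had a median log2 ratio of 1.37 (9 genes) and those without it 0.90 (17 genes). A match describes letters and is not shown to be a site.

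Stress and apoptosis targets were among the highest. Gdf15, a stress cytokine gene of the TGF-beta superfamily, had 5 UMIs in shielded and 317 in irradiated endothelium, a ratio of 84.6 (35.9 to 262), and its richest irradiated barcode held 14.2% of the UMIs. Ltc4s, the leukotriene C4 synthase gene, had 36 and 918 UMIs, 13.5 and 460 CPM, a ratio of 34.0 (24.4 to 48.9), with 12.8 and 255 CPM at 24 hours. Sesn2, a stress-induced inhibitor gene of mTORC1 signalling, had 15 and 88 UMIs, a ratio of 7.83 (4.50 to 14.6). Gdf15, Ltc4s and Sesn2 were found in 0.526%, 3.29% and 1.71% of shielded barcodes and in 18.9%, 46.2% and 13.9% of irradiated ones. Bax, the apoptosis effector gene, had 179 and 822 CPM, a ratio of 4.59 (4.15 to 5.10), and Bbc3, which encodes the apoptosis activator PUMA, had 46 and 120 UMIs, a ratio of 3.48 (2.46 to 5.00). Zmat3, an RNA-binding zinc finger gene, stood at 5.41 (3.72 to 8.08), the exonuclease gene Aen at 4.48 (3.22 to 6.31), the epoxide hydrolase gene Ephx1 at 3.45 (3.03 to 3.93) and the carbonyl reductase gene Dcxr at 5.85 (4.40 to 7.88).

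Not all targets followed. Sesn1, the sestrin gene related to Sesn2, had 38.7 and 19.5 CPM, a ratio of 0.505 (0.340 to 0.737), beside 1.09 at 24 hours. Plk2, a polo-like kinase gene, had 415 and 290.0 CPM, a ratio of 0.698 (0.630 to 0.772), and the antiproliferative gene Btg2 had 351 and 292, a ratio of 0.832 (0.749 to 0.924). At 24 hours the last 2 had ratios of 1.57 and 1.94. Apaf1, the apoptosome scaffold gene, was at 1.23 (0.845 to 1.78) after 3.60 at 24 hours. Ddb2, a DNA repair gene with 15 and 7 UMIs, was at 0.623 (0.215 to 1.62). Ckap2, a spindle-associated gene, had 6 and 48 UMIs, a ratio of 10.7 (4.56 to 30.5), but 83.3% of the shielded and 35.4% of the irradiated UMIs lay in 1 barcode each. Without those barcodes the ratio was 41.4, but hardly any of the 6 shielded UMIs remained, so that value is not a firm one.

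**Figure D2:**
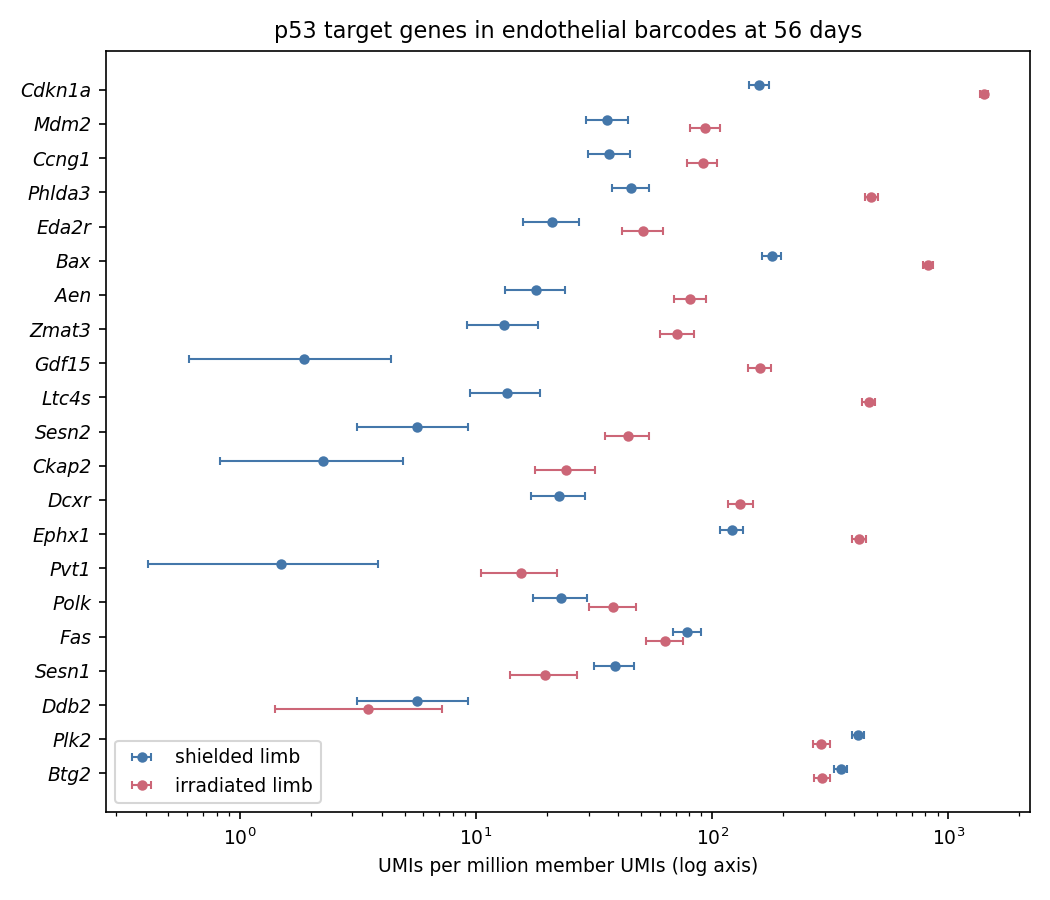
Level in CPM (horizontal log axis) of 21 p53 targets in shielded (blue) and irradiated (red) endothelium at 56 days, with exact Poisson 95% bars for counting error. The bars of both libraries do not overlap for Cdkn1a, Phlda3, Gdf15 or Ltc4s, and the points of Sesn1, Plk2 and Btg2 stand further left in the irradiated library.

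The higher Cdkn1a level was spread over many barcodes but not all. After each barcode was thinned to 1000 UMIs, leaving out 78 and 48 shallower ones, 92 of 683 shielded barcodes (13.5%, 11 to 16.3) and 255 of 428 irradiated ones (59.6%, 54.8 to 64.3) held at least 1 Cdkn1a UMI. Unthinned shares were 26.9% and 78.2%. Leukocyte barcodes of the same libraries, with Ptprc and no endothelial marker of the rule, held one in 2.42% (1.05 to 4.72) and 5.88% (2.19 to 12.4) after thinning. Their median depths were 5018.5 and 4241.5 UMIs. These shares can hold free RNA as well as Cdkn1a RNA of the leukocytes themselves. On summed UMIs the Cdkn1a ratio was 3.07 (2.22 to 4.22) in leukocyte barcodes. In fibro-adipogenic barcodes, taken alike by Pdgfra, it was 4.92 (3.56 to 6.84). So Cdkn1a was not higher in endothelium alone. At least 3 Cdkn1a UMIs were found in 0.439% of shielded and 22.0% of irradiated endothelial barcodes. Per 10000 UMIs the unthinned median was 0 and 10.8, and the highest barcodes reached 27.4 and 107.

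**Figure D3:**
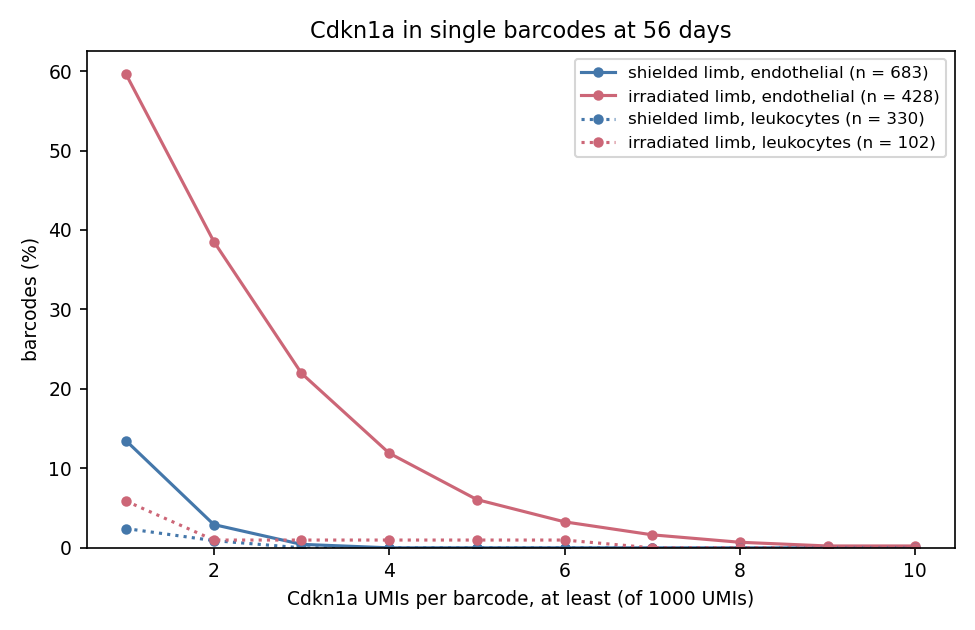
Share of barcodes (vertical axis, %) with at least the given number of Cdkn1a UMIs (horizontal axis) after thinning to 1000 UMIs, for endothelial (solid) and leukocyte (dotted) barcodes of the 56-day libraries. At 1 UMI the irradiated endothelium stands at 59.6% and the shielded at 13.5%, and leukocyte barcodes stay under 6%.

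Other p53 targets were found more often beside Cdkn1a. Among thinned irradiated barcodes Phlda3 was present in 42.7% of the 255 with Cdkn1a and in 16.8% of the 173 without. Gdf15 was present in 14.5% and 2.31%, and Ltc4s in 32.2% and 20.2%. In leukocyte barcodes of that library, thinned alike, these shares were 0 of 102 for Phlda3, which at a limit of 3 counts allows up to 2.94%, and 0.980% for each of the others. The summed interferon-induced genes described below had a mean of 4.66 UMIs in barcodes with Cdkn1a and 4.98 in those without. In shielded endothelium, thinned alike, Phlda3 was present in 9.78% of the 92 barcodes with Cdkn1a and in 3.21% of the 591 without. Ltc4s was present in 5.43% and 1.02%, and Gdf15, found in only 2 barcodes, in 1.09% and 0.169%. The interferon-induced genes had means of 3.97 and 2.95 UMIs there. The earlier pair of libraries had the same order for these targets. So the joint presence was not particular to irradiated endothelium. Each of these sets of barcodes came from 1 library, and the shares and means are descriptions.

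Barcodes with at least 2 summed UMIs of arterial genes (Gja4, Gja5, Hey1, Sox17, Bmx, Sema3g, Stmn2, Fbln5) or of venular genes (Ackr1, Selp, Lrg1, Vwf, Nr2f2) were set apart by the larger sum. This gave 256 and 199 arterial, 104 and 60 venular and 401 and 217 other barcodes, shielded and irradiated. Another 172 and 90 barcodes, counted among the others, lay 1 UMI short. The cut used unthinned UMIs, so deep barcodes reached it more easily. Shielded arterial barcodes also held 183 of the 406 Car4 UMIs and 3521 of the 8853 Cd36 UMIs, both capillary genes. The set names thus give the cut and not pure vessel segments. The Cdkn1a ratio was 6.83 (5.92 to 7.90) in arterial barcodes, 13.9 (9.71 to 20.6) in venular ones and 11.1 (9.40 to 13.1) in the rest. The arterial interval thus lay below the other 2, and shielded arterial barcodes held 222 of the 422 shielded UMIs. For Phlda3 the intervals of the 3 sets overlapped, at 9.93 (7.42 to 13.5), 8.21 (5.24 to 13.4) and 12.2 (9.01 to 17.0). Ltc4s had 0 UMIs in shielded and 108 in irradiated venular barcodes.

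The 15 genes furthest higher, ranked by the interval bound nearest to 1, held the p53 targets Gdf15, Ltc4s, Phlda3, Cdkn1a, Ckap2, Sesn2 and Dcxr, as well as Apln. The others included Cox6b2, a cytochrome c oxidase subunit gene, with 5 and 109 UMIs and a ratio of 29.1 (12.1 to 91.4), Ces2e, a carboxylesterase gene, with 2 and 44 UMIs, 29.4 (7.66 to 249.96), and Zfp365, a zinc finger gene, with 2 and 43 UMIs, 28.7 (7.47 to 244). Enho, the adropin gene, had 24 and 124 UMIs, 6.89 (4.43 to 11.2). At 24 hours 13 of the 15 were also measured and higher (17.7% of all genes). Nnmt, a nicotinamide methyltransferase gene with 1 and 24 UMIs, a ratio of 32.0 (5.22 to 1317), was at 1.16 there. Ccl5, a chemokine gene of T cells and others, had 0 and 212 UMIs, 99.5% of them in 1 barcode, and too few UMIs at 24 hours. Gatm, a creatine synthesis gene, had 2 and 35 UMIs, a ratio of 23.3 (6.00 to 200.4), with 85.7% in 1 barcode, and stood at 0.989 when barcodes with 2 marker UMIs were let in.

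The D-type cyclin genes were higher. Ccnd1, the cyclin D1 gene that drives entry into the cycle, had 221 and 851 CPM, a ratio of 3.86 (3.51 to 4.24) against 1.92 at 24 hours. Ccnd2 had 167 and 354, a ratio of 2.12 (1.88 to 2.39), and Ccnd3 had 72.4 and 111, a ratio of 1.53 (1.26 to 1.87). Over the whole cell cycle list 5 of 21 measured genes were higher (12.9% of all genes) and 4 lower (13.1%), and the median was 0.11. Proliferation genes were rare in both libraries. A UMI of Mki67 or Top2a stood in 5 of 761 shielded and 7 of 476 irradiated barcodes.

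Some other genes that restrain the cell cycle had ratios under 1, in a list that was mixed. Cdkn1c, the p57 gene, had 589 and 289 CPM, a ratio of 0.492 (0.446 to 0.541) beside 0.574 at 24 hours. Cdkn1b, the p27 gene, was at 112 and 66.1, a ratio of 0.589 (0.476 to 0.725), or 0.798 when barcodes were thinned, and had been 1.42 at 24 hours. Rb1, the retinoblastoma gene, was at 0.642 (0.509 to 0.806) after 1.89. Of 16 measured kinase inhibitors and senescence regulators, Cdkn1a included, 2 were higher (12.9% of all genes) and 3 lower (13.1%). These shares are near those of all genes, and the list median was -0.12 (-0.48 to 0.33). Shares of barcodes with Cdkn1c after thinning were 36.9% (33.3 to 40.6) and 21.3% (17.5 to 25.4), against 0.303% and 0 of 102 in leukocytes. Among survival genes Bcl2l1, which encodes BCL-XL, had 113 and 161 UMIs, a ratio of 1.90 (1.49 to 2.44), and the proapoptotic Bcl2l11 (BIM) had 64 and 24, a ratio of 0.50 (0.299 to 0.811). DNA repair genes were mixed, with 5 of 28 higher (12.9% of all genes) and 8 lower (13.1%). Prkdc, the DNA-dependent kinase gene, was at 0.445 (0.277 to 0.695) and the ligase gene Lig4 at 3.43 (1.37 to 9.72) on 7 and 18 UMIs. Centred on genes of similar genomic span, a step explained with the long genes below, the repair counts were 6 higher and 5 lower.

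Several genes of secreted factors were higher. Apln, the gene of apelin, a peptide of sprouting vessel tips, had 47 and 315 UMIs, 17.6 and 158 CPM, a ratio of 8.94 (6.57 to 12.4) against 4.01 at 24 hours. It was found in 3.15% of shielded and 18.5% of irradiated barcodes before thinning, and in 1.02% (0.413 to 2.10) and 8.64% (6.16 to 11.7) after, and in none of 330 and 102 thinned leukocyte barcodes, which at the limit of 3 counts allows up to 0.909% and 2.94%. Gas6, whose product activates the TAM receptor kinases that mediate clearance of dying cells, had 330.3 and 835 CPM, a ratio of 2.53 (2.33 to 2.75) beside 2.60 at 24 hours. Both genes had ratios of like size in arterial, venular and other barcodes, 8.77, 11.7 and 9.48 for Apln and 2.30, 3.10 and 2.61 for Gas6.

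Csf1, the macrophage colony-stimulating factor gene, had 98 and 154 UMIs, a ratio of 2.10 (1.62 to 2.73), and Angpt2, a Tie2 ligand gene, had 120 and 160 UMIs, 1.78 (1.40 to 2.27). Dhh, a hedgehog ligand gene, had 44 and 63 UMIs, 1.91 (1.28 to 2.87). Kitl, the stem cell factor gene, had 1116 and 755 CPM, 0.677 (0.636 to 0.720), and Igf1 had 88 and 33 UMIs, 0.50 (0.325 to 0.754). Of 19 measured endothelial growth factor genes 8 were higher and 1 lower, with a median of 0.52 (-0.03 to 0.83). In the list of secretory senescence factors 8 of 15 measured genes were higher and 1 lower. Over all genes 12.9% were higher and 13.1% lower. The leading secretory senescence factors were uneven. Icam1, a leukocyte adhesion gene, had 85 and 170 UMIs, a ratio of 2.67 (2.04 to 3.50), in 7.62% and 19.5% of barcodes. Igfbp5 had 79 and 330 UMIs, of which 79.1% of the irradiated ones lay in 1 barcode, and Serpine2 had 10 and 45 UMIs with 46.7% in 1 barcode, and its ratio of 6.00 (2.98 to 13.4) became 1.51 when barcodes with 2 marker UMIs were let in.

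Part of the genes induced by type I interferon, the antiviral cytokine, were higher at 56 days. Of 28 measured genes 12 were higher (12.9% of all genes) and none lower (13.1%), and the median was 0.42 (0.09 to 0.80). In the 24-hour pair 9 of 27 were lower (5.82% of all genes) and none higher (17.7%), with a median of -0.37. Isg15, an antiviral ubiquitin-like gene (ENSMUSG00000035692, chromosome 4, 156199424 to 156200818), had 140 and 356 CPM at 56 days, a ratio of 2.55 (2.24 to 2.89), and 266 and 153 at 24 hours, a ratio of 0.575. The shielded level at 56 days was the lowest of the 4 libraries for this gene. Irf7, the master regulator gene of the response, had 57.0 and 183 CPM, 3.20 (2.64 to 3.90), against 0.525 at 24 hours. Ifi27l2a had 114 and 418, a ratio of 3.66 (3.21 to 4.19), and Lgals3bp, a secreted galectin ligand gene, had 57.8 and 121, 2.09 (1.70 to 2.57).

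Other listed genes had ratios nearer to 1. Ifit1 and Ifit3, which encode RNA-binding antiviral proteins, were at 1.74 (1.44 to 2.12) and 1.84 (1.52 to 2.23). Rsad2, the viperin gene, was at 1.19 (1.05 to 1.34). In venular barcodes 17 of 22 measured genes were higher and none lower, where 17.1% and 18.4% of all 5752 measured genes were, and the median was 1.07 (0.65 to 2.08). In the others 12 of 24 were higher and none lower, beside 13.9% and 15.1% of all genes, with a median of 0.64. In arterial barcodes 5 of 26 were higher and 1 lower, beside 14.2% and 16.7%, and the median was 0.01. Isg15 was at 6.77 (4.32 to 11), 3.64 (2.87 to 4.64) and 1.67 (1.42 to 1.97) in venular, other and arterial barcodes. The arterial interval stood apart and the other 2 overlapped.

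Promoters of 3 interferon genes are shown because the ISRE, the element bound by interferon-activated factors, is visible in them as GAAA, any 2 bases, then GAAA. Capitals mark the matches, and overlapping matches run together.
Isg15 (chr4:156200847-156200926, minus strand): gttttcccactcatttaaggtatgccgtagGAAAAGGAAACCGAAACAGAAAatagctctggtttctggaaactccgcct
Oas1a (chr5:120907499-120907578, minus strand): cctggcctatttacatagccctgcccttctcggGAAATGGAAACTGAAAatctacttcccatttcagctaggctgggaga
Bst2 (chr8:71537556-71537635, minus strand): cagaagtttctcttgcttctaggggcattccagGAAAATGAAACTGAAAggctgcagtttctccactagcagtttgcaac
The motif, searched on both strands, stood in 11 of 21 listed genes in the RefSeq table (52.4%) and in 3.99% of all genes there. Measured genes with it had a median log2 ratio of 0.71 (10 genes) and those without it 0.27 (10 genes). Oas1a, an oligoadenylate synthetase gene, had 19 and 41 UMIs, a ratio of 2.88 (1.63 to 5.25), and Bst2, the tetherin gene, had 2146 and 2580, a ratio of 1.60 (1.51 to 1.70).

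Some MHC class I genes, which present peptides to T cells, were higher. H2-K1 had 3823 and 4718 UMIs, a ratio of 1.65 (1.58 to 1.72), H2-D1 had 5431 and 6530, a ratio of 1.60 (1.55 to 1.66), and B2m, the light chain gene, was at 1.51 (1.45 to 1.58). Of 18 listed genes 6 were higher (12.9% of all genes) and 1 lower (13.1%), with a median of 0.43 (0.22 to 0.64) against -0.37 at 24 hours. H2-K1, H2-D1 and the Qa genes H2-Q6 and H2-Q7, at 1.95 (1.65 to 2.29) and 1.66 (1.48 to 1.87), are close relatives, so the split of reads among them is uncertain. Centred by genomic span 2 were higher and the median was 0.17. Interferon-gamma genes had 3 of 20 higher, 4 lower and a median of -0.22. Tgtp2, a T cell specific GTPase gene, had 53.7 and 15.5 CPM, 0.289 (0.190 to 0.429), and the guanylate-binding gene Gbp9 was at 0.564 (0.483 to 0.657). In shielded limbs, however, Tgtp2 was 7.21-fold higher at 56 days than at 24 hours. Cxcl9, a T cell chemokine gene, had 192 and 400 UMIs, a ratio of 2.78, but 49.2% of the irradiated UMIs lay in 1 barcode and the ratio without it and its shielded counterpart was 1.45.

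Several genes of capillary fatty acid handling were lower. Of 19 measured genes 5 were lower (13.1% of all genes) and 1 higher (12.9%), with a median of -0.34 (-0.63 to 0.14). At 24 hours 7 of 21 were lower (5.82% of all genes) and 2 higher (17.7%). Car4, a carbonic anhydrase gene of capillary walls (ENSMUSG00000000805, chromosome 11, 84957786 to 84966044), had 406 and 57 UMIs, 152 and 28.5 CPM, a ratio of 0.187 (0.139 to 0.248) beside 0.264 at 24 hours. After thinning it was found in 14.1% (11.5 to 16.9) of shielded and 3.04% (1.63 to 5.14) of irradiated barcodes and in none of the thinned leukocyte barcodes. Its ratio was 0.216 in arterial, 0.244 in venular and 0.146 in other barcodes.

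Cd36, the fatty acid transporter gene, had 3323 and 1758 CPM, a ratio of 0.529 (0.509 to 0.550). Rgcc, a growth-regulating gene of capillaries, had 1078 and 554 CPM, 0.514 (0.479 to 0.551), and the lipid regulator gene Pparg had 59.3 and 32.6, 0.549 (0.405 to 0.737). Timp4, a protease inhibitor gene, was at 0.644 (0.602 to 0.689). Fabp4, the fatty acid binding protein gene, was at 0.728 (0.718 to 0.739), nearer to 1 than its 0.512 at 24 hours. Gpihbp1, which anchors lipoprotein lipase, was not lower, at 1.16 (1.11 to 1.21), after 0.681 at 24 hours, but stood at 0.967 when ratios were centred by gene span.

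Of 19 measured arterial genes 6 were higher (12.9% of all genes) and none lower (13.1%), with a median of 0.50 (-0.03 to 0.64). Gja4, the connexin 37 gene, had 124 and 208 UMIs, a ratio of 2.24 (1.78 to 2.82), and Fbln5, an elastic fibre gene, had 259 and 411, a ratio of 2.12 (1.81 to 2.48). Both genes also helped to set the arterial barcodes apart. Edn1, the endothelin 1 gene, was at 1.56 (1.30 to 1.88). Cxcl12, a chemokine gene, was at 0.710 (0.680 to 0.742). Venous and venular adhesion genes had 2 higher and 2 lower of 15, shares near those of all genes. Fmo2, a monooxygenase gene, had 406 and 178 CPM, 0.439 (0.389 to 0.496), and the interleukin 1 receptor gene Il1r1 had 170 and 61 UMIs, 0.479 (0.351 to 0.645). At 24 hours these 2 had ratios of 0.991 and 0.854.

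Of 23 measured junction and caveolar genes 3 were lower (13.1% of all genes), a share near that of all genes, and none was higher (12.9%), with a median of -0.05. Tek, the angiopoietin receptor gene, had 383 and 222 CPM, a ratio of 0.579 (0.517 to 0.648). Flt1 and Kdr, which encode VEGF receptors 1 and 2, missed the 1.5-fold limit, at 0.669 (0.640 to 0.700) and 0.713 (0.677 to 0.751). Tjp1, the ZO-1 gene of tight junctions, had 682 and 324 CPM, 0.474 (0.433 to 0.519), and Jam2, a junctional adhesion gene, had 874 and 474, 0.543 (0.503 to 0.586). Centred on genes of similar genomic span the ratios were 0.816 for Flt1, 0.759 for Kdr, 0.706 for Tek, 0.610 for Tjp1 and 0.610 for Jam2.

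Part of the basement membrane genes were higher in irradiated endothelium. Of 16 measured genes 5 were higher (12.9% of all genes) and none lower (13.1%), with a median of 0.36 (0.18 to 0.82) beside -0.06 at 24 hours. Sparc, the osteonectin gene, had 5514 and 7272 UMIs, a ratio of 1.76 (1.70 to 1.82). The collagen genes Col15a1 and Col18a1 had 266 and 425 and 61 and 118 UMIs, ratios of 2.13 (1.82 to 2.49) and 2.58 (1.88 to 3.58), and the nidogen gene Nid2 had 67 and 131, 2.61 (1.93 to 3.56). Shielded limbs differed in these genes too, since Sparc was at 0.426 and Col15a1 at 0.490 in shielded endothelium at 56 days over 24 hours. The summed pericyte and smooth muscle markers, 1055 against 642 CPM, moved with this group. Acta2 had 52.5 CPM in shielded and 178 in irradiated barcodes, and Tagln 78.1 and 218. Mcam, counted in that sum, had 86.3 and 167 CPM, above its 23.2 and 96.2 CPM in the other barcodes. It is also listed among the tip-cell genes, so it does not mark pericytes alone. Rgs5, the marker with most UMIs, was level at 343 and 340 CPM. Kcnj8 had 11.26 and 21.03 CPM and Pdgfrb 15.39 and 23.04, on few UMIs. Without barcodes that held at least 3 UMIs of 11 genes of other cells, Sparc was at 1.89 and the list median at 0.39.

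Fibrillar collagen genes were lower on few barcodes. Col1a1 had 272 and 13 UMIs and Col1a2 had 289 and 30, ratios of 0.0638 (0.0335 to 0.111) and 0.139 (0.0918 to 0.202), and Dcn, the decorin gene of fibroblasts, had 395 and 48, a ratio of 0.162 (0.118 to 0.219). One barcode held 49.3%, 49.1% and 24.8% of the shielded UMIs of these 3 genes. Without barcodes with markers of other cells the ratios were 1.29, 0.863 and 2.59, and the list median turned from -0.30 to 0.48. The 15 genes furthest lower by the ranking used above were uneven as well. In 14 of them over 40% of the shielded UMIs lay in 1 barcode, and 13 were found in under 2% of the barcodes. They include Penk with 122 and 2 UMIs, a ratio of 0.0219 (0.00262 to 0.0807), with 87.7% of the shielded ones in 1 barcode, and Igfbp6 with 126 and 6, 72.2% in 1 barcode. Fibro-adipogenic and leukocyte markers, higher in the shielded set, moved with them, and their part was not tested.

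A second ranking, chosen after the values were seen, kept genes found in at least 5% of the barcodes of the higher library with at most 25% of UMIs in 1 barcode. Among the 15 furthest lower genes it gave Prg4, the lubricin gene, with 414 and 34 UMIs, a ratio of 0.110 (0.0749 to 0.156), Car4, Rassf9 at 0.294 (0.255 to 0.338), the linker histone gene Hist1h1e at 0.245 (0.197 to 0.302) and Xdh, the xanthine dehydrogenase gene, at 0.343 (0.293 to 0.400). Of these 15 genes 12 were higher in shielded endothelium at 56 days than at 24 hours (13.8% of all genes). That comparison reuses the shielded 56-day counts by which the genes were ranked, so a high count follows in part from the ranking. In the 24-hour contrast, which shares no library with the ranking, 4 were also lower (5.82% of all genes). Prg4 was 7.69-fold higher between the shielded libraries and at 1.06 in the 24-hour contrast. Some of these 15 genes were lower outside endothelium too. Hist1h1e was at 0.207 (0.163 to 0.259) in leukocyte and 0.289 (0.113 to 0.621) in fibro-adipogenic barcodes. Xdh was at 0.614 (0.4495 to 0.825) and 0.597 (0.335 to 1.004), and Prg4 at 0.533 (0.374 to 0.742) in fibro-adipogenic barcodes. Fosb, also of the 15, was at 1.53 (1.15 to 2.02) in leukocyte barcodes. Car4 had 0 UMIs in both sets, and Rassf9 hardly any. So Hist1h1e was not lower in endothelium alone. For the 15 furthest higher genes of this ranking, 15 were also higher at 24 hours (17.7% of all genes).

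Ratios followed the genomic span of the gene. In 5 groups of the measured genes from short to long, with median spans of 4.45, 12.5, 24.2, 46.2 and 118 kb, the median log2 ratio at 56 days was 0.27, 0.14, 0.02, -0.14 and -0.29. It ran from -0.12 to 0.24 at 24 hours and from -0.25 to 0.28 between the shielded libraries. Transcripts of Gm42418, a locus that overlaps ribosomal RNA, were 3.50% of UMIs in the shielded and 1.92% in the irradiated library at 56 days, and 1.71% and 3.10% at 24 hours. Long genes, this locus and mitochondrial transcripts were thus high together in the shielded library at 56 days and in the irradiated one at 24 hours. The part of these traits in any single gene was not tested. Centred by span, the p53 targets kept a median of 1.20 with 23 higher and 3 lower, and the interferon list one of 0.34 with 10 higher.

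**Figure D4:**
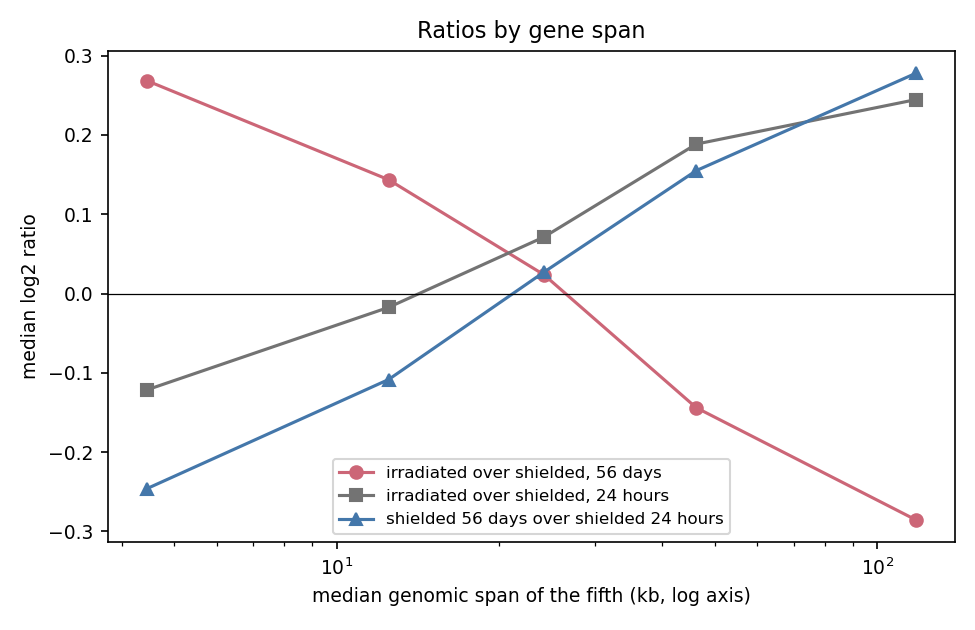
Median log2 ratio (vertical axis) in 5 groups of genes by genomic span (horizontal log axis, kb) for 3 comparisons. At 56 days the line falls from 0.27 for short genes to -0.29 for long ones, and both other comparisons run upward with span.

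Mitochondrially encoded genes, which make respiratory chain subunits, had ratios under 1, with 4 of 13 lower (13.1% of all genes), none higher (12.9%) and a median of -0.54. At 24 hours 4 were higher (17.7% of all genes) and the median was 0.46. The complex I subunit mt-Nd4l had 3798 and 1094 UMIs, 0.384 (0.359 to 0.411), and mt-Nd6 had 366 and 91, 0.332 (0.261 to 0.418). Cytosolic ribosomal protein genes had 9 of 82 higher and none lower, with a median of 0.23 beside -0.27 at 24 hours. Gapdh, a glycolytic gene with many pseudogene copies, had 349 and 753 UMIs, 2.88 (2.53 to 3.28). Immediate early genes, which dissociation can induce, were mixed, with 2 of 20 higher and 4 lower. Fosb had 121 and 28 UMIs, 0.309 (0.197 to 0.469), and Jun had 674 and 387 CPM, 0.574 (0.527 to 0.625).

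**Figure D5:**
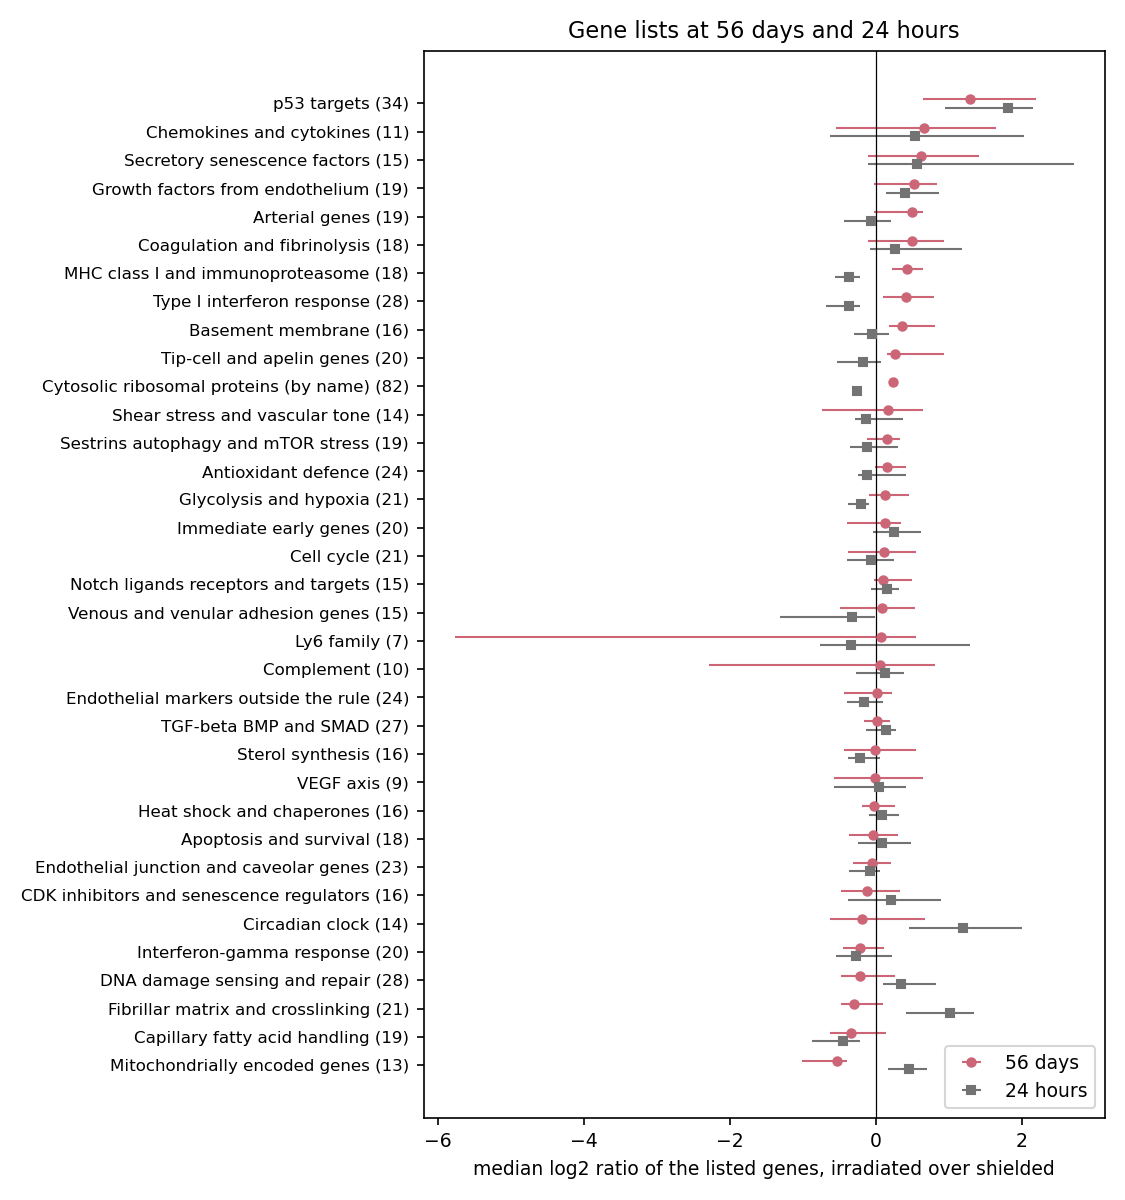
Median log2 ratio (horizontal axis) of each gene list with at least 6 measured genes, irradiated over shielded, at 56 days (red circles) and 24 hours (grey squares), with order-statistic intervals and the number of measured genes at 56 days in brackets. The p53 targets stand furthest right at both times, and the interferon, MHC class I and mitochondrially encoded lists lie on opposite sides of 0 at the 2 times.

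The counts that follow stand beside 12.9% of all genes higher and 13.1% lower at 56 days. Tip-cell genes, Apln included, had 7 of 20 higher and 1 lower, and chemokine and cytokine genes 7 of 11 higher and 1 lower. The chemokine and cytokine list had a median of 0.66, with an interval that held 0 (-0.55 to 1.64). Its summed level was 2580 CPM in shielded and 2193 CPM in irradiated endothelium. For the chemokine genes Ccl5 and Cxcl9, as given above, much of the irradiated count lay in 1 barcode. Antioxidant genes had 5 of 24 higher and none lower, with Gpx1, a glutathione peroxidase gene, at 1.68 (1.49 to 1.90), and coagulation genes 8 of 18 higher and none lower, among them Mmrn2, the endothelial multimerin gene, at 1.91 (1.77 to 2.06). Genes of the TGF-beta and BMP pathways had 1 of 27 higher and 3 lower, with Smad4, the shared mediator, at 0.519 (0.429 to 0.624). Notch genes had 1 higher and 1 lower of 15, heat shock genes 1 higher and none lower of 16, and sterol genes 2 higher and 2 lower of 16, the last close to the shares of all genes. Clock genes had 4 higher and 5 lower of 14 with a median of -0.19, whereas 12 of 16 were higher and 1 lower at 24 hours, beside 17.7% and 5.82% of all genes, with a median of 1.20.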

How the data were processed

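The authors aligned and counted reads with Cell Ranger 5.0.0 on mm10, per the submitters' processing notes, and the deposited matrices hold UMI counts per gene and barcode, filtered before deposit, for 32285 genes. The raw counts were used as deposited. UMIs of the chosen barcodes were summed per library and scaled to their total. Total member UMIs limit precision, as the counting intervals (exact conditional binomial for ratios, exact Poisson for levels, exact binomial for shares, all 95%) show. Log2 ratios used a prior count of 0.5. A gene with at least 20 UMIs over both libraries counted as measured. With 1 library a group, no test was run.

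No doublet caller and no removal of free RNA was applied, and an alternative left out the 5% of barcodes with most UMIs. Gene coordinates came from GENCODE M21. The named genes were the 15 furthest higher and lower by the interval bound nearest to 1, leaving out mitochondrial, ribosomal, haemoglobin, Y-linked, Xist, predicted and receptor genes and markers of other cells, with up to 4 of each of 36 lists by the same bound, and 8 p53 and ligand genes named always. Other genes in the text, such as Bax or Rsad2, were chosen as list members after their values were seen. The members, lists and genes were chosen with earlier results of these data known. Of the list symbols 7 were not matched, and single results on some genes are not reported here. The ratio code was tested on simulated counts. Python 3.11.15, numpy 2.4.6, scipy 1.17.1 and pandas 2.3.3 were used.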

Additional observations from a re-analysis of the deposited data

Results flagged for a closer look

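These 15 genes and 4 lists had intervals on opposite sides in the 56-day and 24-hour pairs, for genes wholly past 1.5-fold. The genes come from the 147 named by rule, chosen mainly by their 56-day values. Other measured genes were not scanned, so the 15 are no count over all genes. The difference between the times was not tested, and each time has 1 library a group. Values are log2 ratios of irradiated over shielded, for single genes without the prior count, first at 56 days and then at 24 hours.

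Irf7 was at 1.68 and -0.93, Isg15 at 1.35 and -0.80 and Cxcl9 at 1.47 and -0.82. For Cxcl9 the 56-day ratio was 0.956 without the 5% of barcodes with most UMIs. The type I interferon list had medians of 0.42 and -0.37, and the MHC class I list 0.43 and -0.37. At 56 days 12 of 28 and 6 of 18 measured genes of these lists were at least 1.5-fold higher, beside 12.9% of all genes. The interferon-gamma list had medians of -0.22 and -0.27. At 56 days 3 of its 20 genes were higher and 4 lower, beside 12.9% and 13.1% of all genes.

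The mitochondrially encoded list had medians of -0.54 and 0.46, with mt-Nd6 at -1.59 and 2.19 and mt-Nd4l at -1.38 and 1.10. The ribosomal protein list had 0.23 and -0.27. Fosb, an immediate early gene, was at -1.70 and 1.29.

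Of the matrix and fibroblast genes, Col1a1 was at -3.97 and 4.73, Col1a2 at -2.85 and 4.18, Dcn at -2.62 and 4.57, Igfbp6 at -3.98 and 2.79, and Ogn at -3.22 and 5.12. Where a library had 0 UMIs the value is a bound at a floor of 3 UMIs per library. Postn was at -3.12 and at least 5.75, Col22a1 at -5.26 and at least 4.24, Itgbl1 at -3.86 or lower and at least 2.52, and Mfap4 at -3.13 or lower and at least 2.55. Fibro-adipogenic and tendon markers moved with these genes, at 495 CPM in shielded and 97.2 in irradiated barcodes at 56 days and at 73.4 and 618 at 24 hours. Without barcodes holding markers of other cells the 56-day ratios of Col1a1 and Dcn were 1.29 and 2.59, and with at least 5 marker UMIs those of Col1a2 and Postn were 1.80 and 3.30. The part of these markers in the result was not tested.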

How the results depend on the processing

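No paired analysis was possible because each group was 1 library. The alternatives were 10 planned settings and 2 chosen after seeing the data, which left out the richest barcode of each gene and centred ratios by gene span in 20 bins. The median log2 ratio of the p53 targets stayed between 1.07 and 1.39 over these 12 settings, with 19 to 29 targets at least 1.5-fold higher. The count of higher genes was 874 with genes of at least 50 UMIs and 3582 with at least 1 UMI, and that of lower genes 3599 with at least 1 UMI. These counts rest on how many genes were tested. The median of all genes turned to -0.013 without the richest barcodes and to -0.000378 when centred by span. Of 36 lists none with an interval off 0 reversed. Of 127 genes 8 did. Col1a1 was at 1.01 with at least 5 marker UMIs and 1.29 without barcodes holding markers of other cells, Col1a2 at 1.80 with at least 5 marker UMIs and 1.00 without the 5% of barcodes with most UMIs, Postn at 3.30 with at least 5 marker UMIs, and Dcn at 2.59 without barcodes of other markers. Without the 5% with most UMIs Cxcl9 was at 0.956 and Igfbp5 at 0.808. Gatm was at 0.989 with at least 2 marker UMIs, and Gpihbp1 at 0.967 centred by span. The cause was not tested. For Postn, 2 settings left 0 shielded UMIs and no ratio.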
